A study of Mus musculus with 4 samples.

Results

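The E-box factors of the MYC network were described here in mouse embryonic stem cells (ESCs) with and without BMAL1. The members were 10 genes named by symbol, *Myc*, *Mycn*, *Mycl*, *Max*, *Mxi1*, *Mnt*, *Mlx*, *Mlxip*, *Usf1* and *Usf2*, and each was found in 1 of the 19645 rows of the expression files. RNA from undifferentiated ESCs was sequenced as 2 wild-type (WT) libraries and 2 *Bmal1* KO libraries. The KO cells carry a CRISPR-Cas9 frameshift deletion in *Arntl*, the gene that encodes BMAL1, and the methods describe 1 selected clone, so the effect of the genotype and a difference between this clone and the WT line cannot be told apart. Both groups were grown on gelatin in serum medium with LIF, and the methods call the 2 libraries of a genotype biological replicates. The deposited unit is FPKM, a fragment number divided by transcript length and by the mapped total of the library.

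All 10 members belong to the basic helix-loop-helix leucine zipper (bHLH-zip) proteins, which pair through the zipper and bind DNA with the basic region at the E-box, whose core letters are CACGTG. BMAL1, a bHLH-PAS protein, binds the same element together with CLOCK. MYC, MYCN and MYCL need MAX as partner to bind DNA and raise genes of growth, ribosome assembly and metabolism, while MXI1 and MNT also pair with MAX and recruit SIN3 corepressors to the same sites. MLX is the partner of MLXIP (MondoA), a sensor of glucose phosphates, and also links to MNT, whereas USF1 and USF2 pair with each other and are present in most cell types. In ESCs, MYC and MYCN are known for their part in self-renewal and proliferation.

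Because the members bind the E-box, their own promoters were searched for it. RefSeq windows of GRCm38.p6, from 250 bases before to 50 bases after each annotated start, were matched by symbol for 8 of the 10 members, all except *Myc* and *Usf2*. The letters CACGTG, which read the same on both strands, occurred in 3 of these 8 genes, *Max*, *Mnt* and *Mlx*, against 8.09% of 27025 genes over all windows. The match is a description of letters and does not show that any factor bound there. The 3 elements are shown because they place the E-box in genes that encode E-box factors, in capitals within the flanking bases and 5′ to 3′ on the strand of the gene.
*Max* (minus strand, chr12:76962246-76962281): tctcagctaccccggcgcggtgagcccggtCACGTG
*Mnt* (plus strand, chr11:74830771-74830836): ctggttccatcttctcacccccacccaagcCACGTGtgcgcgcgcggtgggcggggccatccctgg
*Mlx* (plus strand, chr11:101087220-101087285): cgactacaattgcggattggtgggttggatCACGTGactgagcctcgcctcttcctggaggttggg
The element of *Max* begins 3 bases before the start and so spans it, that of *Mlx* begins 40 bases before the start and that of *Mnt* 123 bases before it. The variant CACGCG, on either strand, was found in 1 of the 11 windows of the members, that of *Mycl*, and in 9.27% of 32851 windows overall.

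The 4 libraries could be compared only as FPKM, from which no read number can be recovered, so their depth is unknown. Error was measured from the spread between 2 libraries per group, which limma drew towards a trend over all tested rows. Median FPKM over all rows ran from 2.32 to 2.46. Rows without a gene symbol held more of the summed FPKM in WT (26.8% and 37.3%) than in KO (19.0% and 18.1%), and the tests were repeated with these rows left out. Of 5 ESC markers, *Pou5f1*, *Nanog*, *Sox2*, *Zfp42* and *Esrrb*, 0 passed a limma adjusted p of 0.05, against 5.60% of tested rows lower and 6.85% higher. Of the 5, 3 were lower at an unadjusted p under 0.05 (15.5% of all tested rows were), and the FPKM of the 5 ran from 147 to 1620. Of 6 fibroblast or feeder markers *Postn* and *Lum* had no row, *Col1a1*, *Col1a2* and *Dcn* stayed at or below 0.217 FPKM in every library, and *Thy1* had 1.54 to 2.73 FPKM. The targeted gene *Arntl* had 6.05 and 6.29 FPKM in WT and 5.95 and 5.92 in KO (log2 fold change -0.06, standard error 0.10, limma adjusted p = 0.750), and an FPKM over the whole gene does not measure a small deletion.

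All 10 members were above the minimum mean of 0.5 FPKM and were tested. *Mycn* was the highest, with a WT mean of 81.9 FPKM, higher than 93.3% of the rows with a symbol, and *Mycl* was the lowest, with 2.45 FPKM, a range of 33.4-fold in WT and of 45.7-fold in KO. In WT the order was *Mycn*, *Max*, *Usf1*, *Myc*, *Mlx*, *Usf2*, *Mnt*, *Mlxip*, *Mxi1* and *Mycl*. Neighbours in this order did not overlap in the WT libraries except for *Mlx* and *Usf2*, with 24.8 ± 0.440 and 24.3 ± 1.73 FPKM (SD, n = 2). That pair stood in the reverse order in KO, with 29.0 ± 0.0319 and 31.3 ± 2.13 FPKM, and it was the only change of order between the genotypes. The level of *Usf1* is uncertain because the files give it in 1 row with *Tstd1*, a neighbour on the same strand that shares 200 exonic bases with it.

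**Figure D1:**
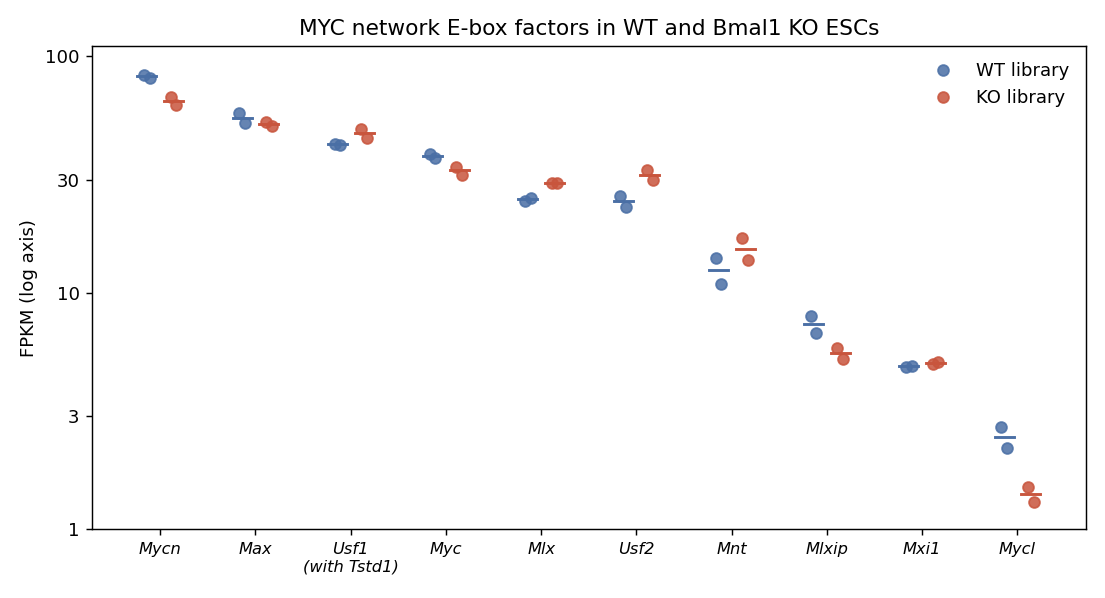
FPKM of each member on a log axis, with a point for each of the 2 WT and 2 KO libraries and a line at the mean of each genotype. Members are ordered by their WT mean, from *Mycn* at 81.9 to *Mycl* at 2.45 FPKM, and *Usf1* shares its row with *Tstd1*.

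The 3 MYC genes had lower values in both KO libraries than in both WT libraries, as did 31.7% of all tested rows. In bulk RNA such a difference can come from fewer cells that express a gene or from less RNA per cell, and these cannot be told apart. *Mycn* (ENSMUSG00000037169.15, minus strand, chromosome 12 from 12936093 to 12941836 of GRCm38), which encodes the MYC protein of embryonic and neural tissues, had 83.0 and 80.8 FPKM in WT and 66.7 and 62.0 in KO. It fell by 21.4%, a log2 fold change of -0.35 (standard error 0.08, 95% interval -0.53 to -0.16, limma adjusted p = 0.0389). It was the only member past an adjusted p of 0.05 in this fit, and it was far from the 2-fold change that the study required. The call rested on all 4 libraries, since the adjusted p was 0.104 without WT replicate 1, 0.0638 without WT replicate 2, 0.0581 without KO replicate 1 and 0.150 without KO replicate 2, with log2 fold changes from -0.40 to -0.30. The adjusted p was also 0.0597 when weakly expressed rows were kept and 0.103 when the variance was not fitted as a trend.

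*Myc* (ENSMUSG00000022346.15, plus strand, chromosome 15 from 61985341 to 61990361) had 38.5 and 37.1 FPKM in WT and 34.1 and 31.5 in KO. The KO mean was 0.867 times that of WT on the fitted scale, a log2 fold change of -0.21 (standard error 0.08, 95% interval -0.40 to -0.01, limma adjusted p = 0.159). The groups of *Myc* were therefore separate in their 4 values, but the difference did not pass the test across all rows. With the replicate number in the model the limma adjusted p was 0.0222. *Mycl* (ENSMUSG00000028654.13, plus strand, chromosome 4 from 122995931 to 123002480), the least expressed of the family in these cells, had 2.70 and 2.2004 FPKM in WT and 1.51 and 1.31 in KO. Its log2 fold change of -0.76 (standard error 0.18, 95% interval -1.21 to -0.30) was the largest of the 10 in size. The limma adjusted p was 0.0525, and 0.0238 with the replicate number in the model. The adjusted p was 0.0165 without WT replicate 2, 0.0425 with quantile normalization and 0.0262 when rows without a symbol were left out, but 0.148 without WT replicate 1, 0.120 without KO replicate 2 and 0.108 when weakly expressed rows were kept. The log2 fold change ran from -0.90 to -0.61 over these removals of 1 library and was -0.52 with a pseudocount of 1.

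Added together, the 3 MYC genes had 124 and 120.1 FPKM in WT and 102.3 and 94.9 in KO, so that the KO mean was 0.807 times the WT mean. *Mycn* made up 66.8% and 67.3% of this sum in WT and 65.2% and 65.4% in KO. *Myc* made up 31.0% and 30.9% in WT and 33.3% and 33.2% in KO, and *Mycl* 2.17% and 1.83% in WT and 1.48% and 1.38% in KO. In both genotypes most MYC family transcript was thus *Mycn*, with a slightly smaller share in KO. These sums and ratios were not tested. The exact permutation test, two-sided, has no p below 0.333 with 2 libraries against 2. The same floor holds for a single row, and the limma p-values of rows rest on variance shared over all rows instead.

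*Max* (ENSMUSG00000059436.13, minus strand, chromosome 12 from 76937269 to 76962248), the partner that all MYC, MXD and MNT proteins share, had 57.1 and 52.0 FPKM in WT and 52.3 and 50.3 in KO. The groups overlapped, and the log2 fold change was -0.09 (standard error 0.08, 95% interval -0.29 to 0.12, limma adjusted p = 0.529). Its ratio to the summed MYC genes was 0.460 and 0.433 in WT and 0.512 and 0.530 in KO. *Max* transcript was thus less abundant than that of its MYC partners in every library and came nearer to it in KO.

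Neither MAX-dependent repressor among the members passed the test. *Mnt* (ENSMUSG00000000282.12, plus strand, chromosome 11 from 74830924 to 74845725) had 14.02 and 10.9 FPKM in WT and 17.0 and 13.7 in KO, with a log2 fold change of 0.30 (standard error 0.16, 95% interval -0.10 to 0.70, limma adjusted p = 0.276). The lower KO library lay below the higher WT library. Within each replicate number KO lay above WT, and with that number in the model the limma adjusted p was 0.0173. Single libraries moved the value of *Mnt* widely. The log2 fold change was 0.48 (adjusted p = 0.0380) without WT replicate 1, 0.12 (0.733) without WT replicate 2, 0.15 (0.655) without KO replicate 1 and 0.45 (0.117) without KO replicate 2. *Mxi1* (ENSMUSG00000025025.14, plus strand, chromosome 19 from 53310506 to 53375810), a member of the MXD family, had 4.86 and 4.90 FPKM in WT and 5.02 and 5.09 in KO. Its groups did not overlap, yet the log2 fold change was only 0.05 (standard error 0.11, 95% interval -0.21 to 0.31, limma adjusted p = 0.786). It shares 194 exonic bases with *Gm10197* on the opposite strand. Relative to the summed MYC genes, *Mxi1* and *Mnt* together had 15.2% and 13.1% in WT and 21.5% and 19.8% in KO.

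The partners MLX and MLXIP differed in opposite directions, and neither passed the test. With the replicate number in the model both did (limma adjusted p = 0.0189 for *Mlx* and 0.0210 for *Mlxip*). *Mlx* (ENSMUSG00000017801.15, plus strand, annotated on chromosome 11 from 101087277 to 101092207) had 24.4 and 25.1 FPKM in WT and 28.9 and 29.0 in KO. The log2 fold change was 0.23 (standard error 0.08, 95% interval 0.04 to 0.41, limma adjusted p = 0.113). The files give *Mlx* the same coordinates as *Psmc3ip*, a gene on the opposite strand with which it shares 385 exonic bases, and the sources used here do not say that strand was used in counting, so the division of reads between them is uncertain. The row of *Psmc3ip* had 27.8 and 33.2 FPKM in WT and 25.8 and 27.1 in KO.

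*Mlxip* (ENSMUSG00000038342.15, plus strand, chromosome 5 from 123394775 to 123457931) had 8.002 and 6.75 FPKM in WT and 5.83 and 5.23 in KO, with a log2 fold change of -0.41 (standard error 0.13, 95% interval -0.73 to -0.09, limma adjusted p = 0.102). Both KO libraries lay below both WT libraries, and the adjusted p was 0.0449 without WT replicate 2 (log2 fold change -0.53), 0.354 without WT replicate 1 (-0.29), 0.107 without KO replicate 1 (-0.48) and 0.259 without KO replicate 2 (-0.33). An annotated antisense gene, *Gm15747*, shares 267 exonic bases with *Mlxip*. The ratio of *Mlx* to *Mlxip* was 3.05 and 3.71 in WT and 4.96 and 5.54 in KO, so *Mlx* exceeded *Mlxip* in every library and by more in KO.

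*Usf2* (ENSMUSG00000058239.13, minus strand, chromosome 7 from 30945248 to 30957582) had 25.5 and 23.1 FPKM in WT and 32.8 and 29.8 in KO. Its log2 fold change of 0.37 (standard error 0.09, 95% interval 0.13 to 0.60) was the most positive of the 10. The limma adjusted p was 0.0610, and 0.00575 with the replicate number in the model. The groups were separate, and the adjusted p was 0.0340 without WT replicate 1 and 0.0390 when rows without a symbol were left out, but 0.204 without WT replicate 2, 0.208 without KO replicate 1 and 0.126 when the variance was not fitted as a trend. The opposite-strand genes *Gm17077* and *Gm44662* share 167 and 74 exonic bases with *Usf2*, and for it as for *Mlxip* and *Mxi1* reads of the gene and of such a partner cannot be told apart without strand. The row of *Usf1* (ENSMUSG00000026641.13, plus strand, annotated on chromosome 1 from 171411313 to 171419142) and *Tstd1* had 42.3 and 42.1 FPKM in WT and 49.2 and 44.8 in KO, a log2 fold change of 0.15 (standard error 0.08, 95% interval -0.05 to 0.35, limma adjusted p = 0.269). It stood at 1.66 and 1.82 times *Usf2* in WT and at 1.499 and 1.502 times in KO.

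**Figure D2:**
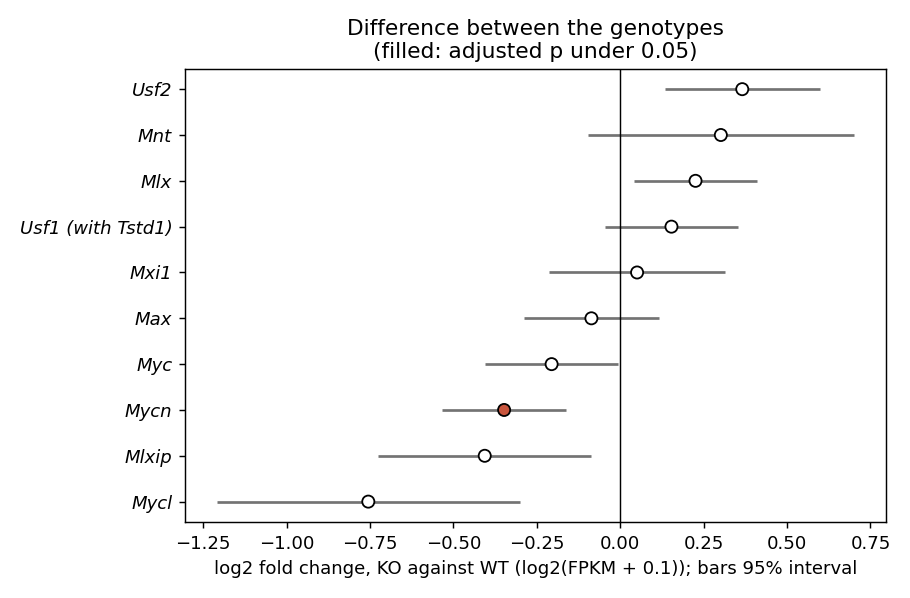
Log2 fold change of KO against WT for each member with its 95% interval from limma, on log2(FPKM + 0.1). The values run from -0.76 for *Mycl* to 0.37 for *Usf2*, and *Mycn*, the filled point at -0.35, is the only member with an adjusted p under 0.05.

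Of the 10 members 1 was lower and 0 were higher at a limma adjusted p under 0.05, against 5.60% and 6.85% of the 12990 tested rows. At an unadjusted p under 0.05 there were 6, *Mycn*, *Mycl*, *Mlxip* and *Myc* below WT and *Usf2* and *Mlx* above it, against 29.6% of rows, 15.5% below and 14.1% above. None was also changed more than 2-fold, against 4.14% of rows. Both KO libraries lay below both WT libraries at 4 members, *Myc*, *Mycn*, *Mycl* and *Mlxip*, against 31.7% of rows, and above them at 4, *Mxi1*, *Mlx*, *Usf1* and *Usf2*, against 27.0%. The median log2 fold change of the 10 was -0.02, as was that of all tested rows. Below 0 were 5 members and above it 5, against 53.2% and 46.8% of rows, and all 10 kept their signs in each alternative setting and without each library.

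**Figure D3:**
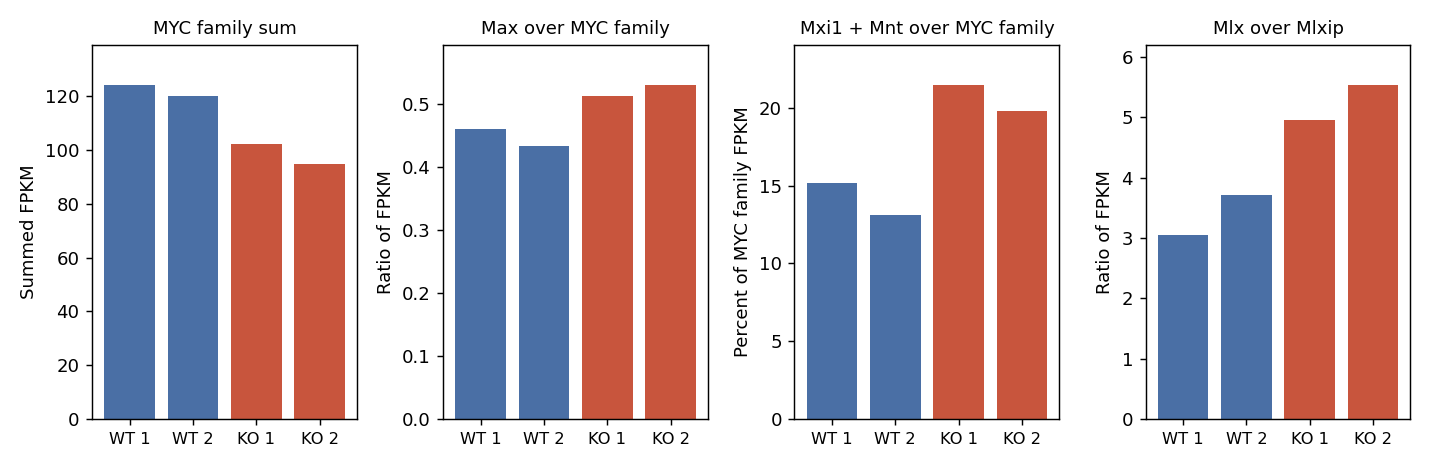
Sums and ratios of FPKM in each of the 4 libraries, with bars from 0. The summed MYC genes are lower in both KO libraries (102.3 and 94.9 against 124 and 120.1 FPKM), and the ratios of *Max* and of *Mxi1* plus *Mnt* to that sum and of *Mlx* to *Mlxip* are higher in both KO libraries.

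Beyond the members, 13 other E-box bHLH-zip genes were listed, of which 12 had a row and 11 were tested. Of the 11, 1 was higher and 0 were lower at an adjusted p under 0.05, against 6.85% and 5.60% of all rows. When rows without a symbol were left out, 3 genes passed. The only gene past the test over all rows was *Mxd1*, which encodes a MAX-dependent repressor of differentiating cells. It had 0.551 and 0.693 FPKM in WT and rose to 1.54 and 1.44 in KO, a difference of 1.15 on the log2 scale (standard error 0.22, limma adjusted p = 0.0296). The adjusted p was 0.0870 without KO replicate 1, 0.0652 without KO replicate 2 and 0.0633 with no filter, and the log2 fold change was 0.62 with a pseudocount of 1. *Mxd1* lies on chromosome 6 between *Eif2ak3* and *Gata2*, a segment from 70844522 to 88207032, chosen after its values were seen. Of its 109 tested rows 102 were higher in KO, against 46.8% of all tested rows. Higher with an adjusted p under 0.05 were 78, against 6.85% of all tested rows. The median log2 fold change of the segment was 0.87. All 20 tested neighbours of *Mxd1*, rows of this same segment, were higher in KO, with a median of 0.91 against 1.15 for *Mxd1* itself. The part of the segment in the value of *Mxd1* was not tested.

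**Figure D4:**
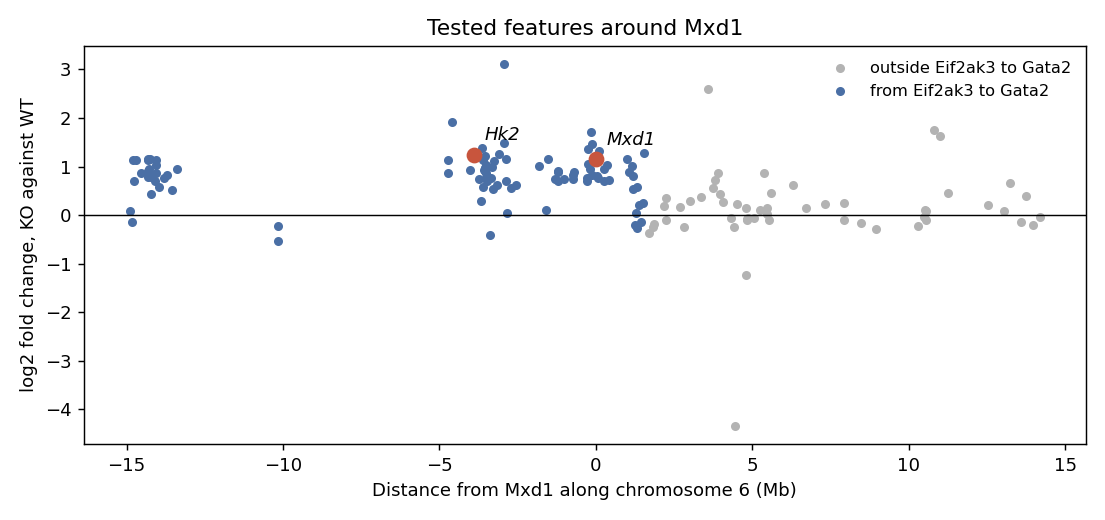
Log2 fold change of KO against WT for the tested rows within 15 Mb of *Mxd1*, against their distance from it along chromosome 6. *Mxd1* (1.15) and the hexokinase gene *Hk2* (1.24) lie among rows of the segment from *Eif2ak3* to *Gata2*, whose median is 0.87.

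The other repressors of the MXD family did not pass the test. *Mxd4* had 0.847 and 0.833 FPKM in WT and 1.31 and 1.81 in KO (log2 fold change 0.80, standard error 0.23, limma adjusted p = 0.0791), and *Mxd3* had 12.8 and 11.3 FPKM in WT and 10.9 and 11.2 in KO (log2 fold change -0.12, limma adjusted p = 0.480). *Mxd3* was thus expressed near the level of *Mnt*, whereas *Mxd1* and *Mxd4* were below 2 FPKM in every library. *Mlxipl* (ChREBP), the relative of *Mlxip*, had 1.09 and 0.694 FPKM in WT and 1.75 and 1.56 in KO (log2 fold change 0.85, standard error 0.26, limma adjusted p = 0.0916). *Mxd3*, *Mxd4*, *Mlxipl* and *Mga* were named after their values were seen. The median log2 fold change of the 11 was 0.22, with 6 above 0 and 5 below, and it was 0.14 without WT replicate 2, 0.12 without KO replicate 1 and 0.11 for 12 genes when weakly expressed rows were kept.

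Cofactors and regulators of MYC protein were 22 genes, among them the acetyltransferase subunits *Trrap* and *Kat5*, the corepressors *Sin3a* and *Sin3b* and the ubiquitin ligase gene *Fbxw7*. Of the 22, 0 passed a limma adjusted p of 0.05, against 5.60% of all rows lower and 6.85% higher. At an unadjusted p under 0.05 there was 1, against 29.6% of rows. The log2 fold changes of the 22 ran from -0.25 to 0.23 with a median of -0.0013. Their count stayed at 0 in each alternative and without each library in turn, except for 6 genes with the replicate number in the model.

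Of 42 genes in common use as targets that MYC raises, all were tested. At an adjusted p under 0.05, 5 were lower and 1 was higher in KO, against 5.60% and 6.85% of all rows. When rows without a symbol were left out, 7 were lower, and the rows lower in total went from 728 to 946. Below 0 were 37 of the 42, against 53.2% of all rows, with a median log2 fold change of -0.12 against -0.02 for all rows. The median was -0.06 with quantile normalization, which left 32 below 0, and -0.10 with median-of-ratios scaling. The WT means of the 42 were higher than 51.2% (*Ccnd2*) to 99.8% (*Npm1*) of the rows with a symbol, and rows of like level were not compared. Of the 5 ESC markers, also abundant, 4 were below 0, with a median of -0.18, or -0.06 with quantile normalization. Both KO libraries lay below both WT libraries at 23 of the 42 genes that MYC raises, against 31.7% of all rows. The groups overlapped at 18 of them, against 5357 of the 12990 tested rows.

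*Ldha*, which encodes the lactate dehydrogenase subunit that turns pyruvate into lactate, fell by 32.6%, from 888 and 877 FPKM to 603 and 587 (log2 fold change -0.57, standard error 0.07, limma adjusted p = 0.00989). *Rcl1*, a ribosome biogenesis gene, fell by 30.3%, from 61.8 and 65.7 FPKM to 45.6 and 43.2 (log2 fold change -0.52, standard error 0.08, limma adjusted p = 0.0142). Both kept an adjusted p under 0.05 in each alternative and without each library. *Odc1*, the rate-limiting enzyme gene of polyamine synthesis, and *Ddx21*, a nucleolar helicase gene, each had a log2 fold change of -0.38 (limma adjusted p = 0.0332 and 0.0263). *Odc1* lost the call without WT replicate 2 (adjusted p = 0.114), KO replicate 1 (0.108) and KO replicate 2 (0.0580), and *Ddx21* without the same libraries (0.0860, 0.0817 and 0.0607). The row of *Srm*, the spermidine synthase gene, also holds *Masp2* and had a log2 fold change of -0.32 (limma adjusted p = 0.0498), and its adjusted p lay between 0.0665 and 0.197 when any 1 library was left out. *Odc1* and *Ddx21* were named after their values were seen.

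The gene higher in KO was *Hk2*, which encodes a hexokinase, the first enzyme of glycolysis. It rose 2.36-fold, from 30.7 and 29.5 FPKM to 73.5 and 69.2 (log2 fold change 1.24, standard error 0.08, limma adjusted p = 0.00169). Like *Mxd1* it lies in the raised segment of chromosome 6. There 18 of its 20 tested neighbours were higher in KO, against 46.8% of all tested rows, with a median of 0.92. Among 4 genes that MYC lowers, *Cdkn1a*, *Cdkn2b*, *Gadd45a* and *Ndrg1*, 0 passed the limma test, against 5.60% of all rows lower and 6.85% higher. Of the 4, 3 had an unadjusted p under 0.05 (29.6% of all rows did), with log2 fold changes from -0.83 to 0.48.

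**Figure D5:**
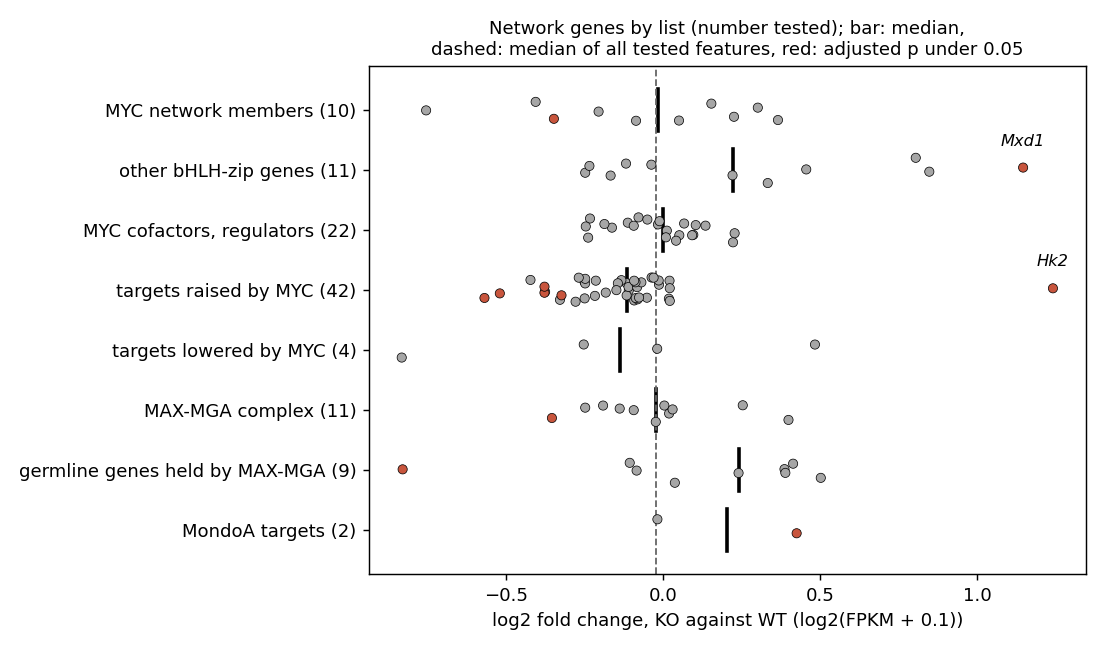
Log2 fold change of KO against WT for each tested gene of the members and of the other lists, with the number tested, a bar at the median of the list and a dashed line at the median of all tested rows (-0.02). Red points have an adjusted p under 0.05, and *Mxd1* and *Hk2* are the genes on the raised segment of chromosome 6.

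MAX also works outside the MYC pairs. With MGA it forms a Polycomb complex that keeps germline genes silent in ESCs. Of 11 genes of this complex 1 passed the test, against 5.60% of all rows lower and 6.85% higher. It was *Tfdp1*, which fell from 162 and 165 FPKM to 124 and 132 (log2 fold change -0.35, standard error 0.07, limma adjusted p = 0.0334). Its adjusted p was 0.0554, 0.0917, 0.135 and 0.0534 without WT replicate 1, WT replicate 2, KO replicate 1 and KO replicate 2. *Mga* itself had 16.6 and 19.0 FPKM in WT and 14.2 and 15.8 in KO (log2 fold change -0.25, limma adjusted p = 0.193).

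Of 10 germline genes known to be held by this complex 9 were tested. At a limma adjusted p under 0.05, 0 were higher and 1 was lower, against 6.85% and 5.60% of all rows. At an unadjusted p under 0.05, 2 were higher, against 14.1% of all rows. The gene that fell was *Stk31*, with 3.86 and 3.79 FPKM in WT and 1.86 and 2.39 in KO (log2 fold change -0.83, standard error 0.16, limma adjusted p = 0.0300, and 0.0569 without KO replicate 1). The median of the 9 was 0.24, and 6 of them were above 0. It was 0.04 for the 7 genes that averaged 1 FPKM or more, 0.14 for all 10 with no filter and 0.15 without WT replicate 2. The letters CACGTG occurred in the promoter windows of 7 of these 10 genes and of 11 of the 35 matched genes that MYC raises, against 8.09% of all genes.

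MondoA is known for raising *Txnip* and *Arrdc4*, arrestin-like genes that limit glucose uptake. *Arrdc4* rose by 34.3%, from 15.5 and 16.6 FPKM in WT to 21.6 and 21.5 in KO (log2 fold change 0.43, standard error 0.08, limma adjusted p = 0.0300), while *Mlxip* had the lower values in KO given above. Its adjusted p was 0.0905, 0.0765 and 0.0728 without WT replicate 1, KO replicate 1 and KO replicate 2. *Txnip* had 45.02 and 45.3 FPKM in WT and 47.5 and 41.8 in KO, with overlapping groups (log2 fold change -0.02, 95% interval -0.24 to 0.20, limma adjusted p = 0.910). *Arrdc4* was thus above WT in both KO libraries, as were 27.0% of all tested rows, and *Txnip* was not. Of the 2 targets 1 was higher at an adjusted p under 0.05, against 6.85% of all rows. The difference between the 2 targets was not tested.

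The E-boxes found in target genes past the test are shown as for the members. The targets *Odc1*, *Ddx21*, *Rcl1*, *Srm* and *Hk2* also passed, and no CACGTG was found in a matched window of theirs. Only 35 of the 42 genes that MYC raises had a matched window, and a missing window was not told apart from missing letters. *Ldha* had 2 elements, 145 and 48 bases before its start, and *Arrdc4* had 1 element 193 bases before its start. *Stk31* had 1 element, 55 and 120 bases before 2 annotated starts.
*Ldha*, distal (plus strand, chr7:46845629-46845694): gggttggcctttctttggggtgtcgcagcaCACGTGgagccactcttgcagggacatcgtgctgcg
*Ldha*, proximal (plus strand, chr7:46845726-46845791): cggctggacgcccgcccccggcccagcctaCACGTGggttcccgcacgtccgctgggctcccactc
*Arrdc4* (minus strand, chr7:68749396-68749461): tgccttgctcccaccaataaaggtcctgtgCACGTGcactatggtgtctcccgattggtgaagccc
*Stk31* (plus strand, chr6:49395454-49395519): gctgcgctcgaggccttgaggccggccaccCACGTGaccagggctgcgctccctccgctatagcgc
*Ldha* and *Stk31* were lower and *Arrdc4* was higher in KO. These genes were picked because they passed the test, and whether the element goes with a direction was not tested. *Tfdp1* also held the element, 231 bases before its start.

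For each member the 20 nearest tested rows, 10 on each side, had a median log2 fold change between -0.14, at *Max*, and 0.17, at *Usf1*. The row of *Usf1* (0.15) and *Max* (-0.09) lay close to these medians, while the neighbours of *Mycn* had a median of 0.01 and those of *Mycl* of 0.01. The 3 rows whose values over the 4 libraries were most like those of *Mycn*, by Euclidean distance of centred log2 values, were *Impdh2* (0.0183), *Rdh11* (0.0216) and *Cirh1a* (0.0224). *Impdh2* had 326 and 321 FPKM in WT and 262 and 243 in KO. With 4 libraries such likeness is common, and 217 rows lay within a distance of 0.1 of *Mycn*.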

How the data were processed

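The authors depleted ribosomal RNA, aligned the reads of each library to GRCm38 (mm10) with TopHat2 2.1.1 and Bowtie2 2.3.0 and deposited FPKM per gene from Cufflinks 2.2.1, as their processing notes and methods state. Strand handling is not given in the sources used here. FPKM divide by the mapped fragments, so a change in a few abundant rows moves all others. Values were compared as log2(FPKM + 0.1) for the 12990 rows with a mean FPKM of at least 0.5 (6655 were left out) in limma 3.58.1 under R 4.3.3, with a variance trend and Benjamini-Hochberg adjustment over all tested rows. Calls required an adjusted p under 0.05, or this and a change over 2-fold. The script was tested on simulated data. Starts were raised by 1 base. Loci came from GENCODE M21 and promoters from RefSeq (GRCm38.p6), read with Python 3.11.15 and pandas 2.3.3. Groups came from the sample labels. Where a symbol had 2 rows, the one with the higher mean was used.

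The members and lists were chosen with earlier results of these data known. The rule for names covered all members, *Arntl*, the 2 highest and 2 lowest fold changes past the test in each other list, any list of 2 genes, and the 3 rows most like the member with the smallest p. Alternatives were a pseudocount of 1 or 0.01, no filter, a mean FPKM of at least 1, quantile or median-of-ratios scaling, the replicate number as a block, no variance trend, FPKM summed by symbol, and leaving out each library. Leaving out rows without a symbol was added after seeing the data. Because a group of 1 library has no spread of its own, leaving out 1 library assumes that it varies like the other group. Protein sequences were not used here.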

Additional observations from a re-analysis of the deposited data

How the results depend on the processing

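The count of 1 member with an adjusted p under 0.05 became 0 with no filter and without a variance trend, 2 with quantile normalization, 3 with rows without a symbol left out and 0 to 2 without 1 library. Leaving out those rows also gave 3 other bHLH-zip genes in place of 1, 1 MYC-lowered target in place of 0 and 2 germline genes in place of 1. With no filter the rows higher and lower fell from 890 and 728 to 571 and 380, and the other bHLH-zip genes, MAX-MGA complex, germline and MondoA genes each had 0. Without the trend, 457 rows were lower, 3 MYC-raised targets passed in place of 6, and the complex and MondoA genes had 0. With quantile normalization 3 raised targets and 0 complex genes passed. A pseudocount of 1 gave 231 rows past 2-fold in place of 538, and leaving out 1 library gave 605 to 820, with the highest without WT replicate 1. Without 1 library the counts were 0 to 3 for the other bHLH-zip genes, 3 to 5 for raised targets, 0 to 1 for lowered targets, 0 for the complex, 0 to 3 for germline genes and 0 to 1 for MondoA targets. *Txnip* turned sign at 0.00043 on the log2 scale with median-of-ratios scaling and ran from -0.11 to 0.073 without 1 library, the highest without KO replicate 2. Depth is unknown, and 2 libraries per genotype limit all of these calls; the cause of the changes was not tested.

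The labels link a WT and a KO library only by the replicate number and do not say what else the 2 pairs share. The replicate differences of WT and of KO had a correlation of Pearson 0.071 and Spearman 0.39. It was taken over 12990 rows, which are not independent replicates. Any part shared within a replicate number counts as error in the main fit, which has no block. The replicate number as a block gave 1807 rows higher and 2245 lower. This block gave 7 members, 3 higher and 4 lower. Lower were *Mycn* (limma adjusted p = 0.00556), *Mlxip* (0.0210), *Myc* (0.0222) and *Mycl* (0.0238). Higher were *Usf2* (0.00575), *Mnt* (0.0173) and *Mlx* (0.0189). The block also gave 6 other bHLH-zip genes, 6 cofactors, 17 raised and 2 lowered targets, 3 complex and 3 germline genes.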
